A study of Homo sapiens with 10 samples.

Results

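The genes described here are 10 markers of crypt base columnar cells other than the receptor LGR5: ASCL2, SMOC2, OLFM4, PROM1, MEX3A, CDCA7, SLC12A2, RGMB, LRIG1 and PTPRO. They were taken by gene symbol from the 26485 genes listed in each of 10 bulk RNA-seq libraries. All libraries came from SW480, a line established from a human colorectal tumour, which the labels give as genotype WT and which was grown in DMEM with fetal bovine serum and sorted by flow cytometry. The ROBO1pos population, also labelled SW480-CBC, carried the surface receptor ROBO1 and had 5 libraries. The ROBO1neg population, also labelled SW480-RSC, lacked the surface signal and had 5 libraries. The labels do not say whether replicates were separate cultures, and the p-values therefore describe variation among these libraries only, some or all of it possibly technical. The single comparison is ROBO1pos against ROBO1neg, and it asks whether stem cell marker expression differs between the sorted populations.

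Crypt base columnar cells sit between Paneth cells at the bottom of the intestinal crypt, divide throughout life and replace the epithelium. Wnt signalling maintains them, and colorectal tumours, in which that pathway is commonly switched on by loss of APC, often keep parts of their gene programme. Several of the markers were established in mouse intestine by lineage tracing or by sorting of Lgr5-expressing cells, so their use in a human line is an extension.

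Between 23228686 and 29539100 reads per library fell on genes, so 1 CPM (a read count scaled to the library's total on genes) corresponds to 23.2 to 29.5 counts. ROBO1, the sorted receptor, averaged 432 ± 28.6 CPM in ROBO1pos and 7.20 ± 1.44 CPM in ROBO1neg (SD, n = 5 each), which matches the labels and is not a finding. Of 10 markers of colorectal epithelium, 9 were tested, with 4 higher in each population and CDX2 not called, while KRT20 had 0 counts in all libraries. Of all genes tested, 41.6% were called higher in ROBO1pos and 40.4% in ROBO1neg. CDX1 and CDH17, both higher in ROBO1pos, reached the expression filter (about 0.399 CPM in 5 libraries) in 0 ROBO1neg libraries. The summed level of the 10 epithelial markers was 5822 to 7015 CPM in ROBO1pos and 7917 to 10491 CPM in ROBO1neg. The 6 immune markers summed to 3.29 to 4.15 CPM in ROBO1pos and 2.58 to 4.09 CPM in ROBO1neg, and the 7 fibroblast and endothelial markers to 9.31 to 13.7 CPM in ROBO1pos and 14.6 to 22.1 CPM in ROBO1neg. Single markers of these lists leaned either way: PTPRC had 6 counts over ROBO1pos and 0 over ROBO1neg, DCN had 36 over ROBO1pos and 0 over ROBO1neg, and CD3E had 1 over ROBO1pos and 16 over ROBO1neg. Of the tested ones, LYZ, COL1A2 and LUM were higher in ROBO1pos, COL1A1 and VWF were higher in ROBO1neg (-1.56 and -2.82 on the log2 scale), and CD14 was not called. LUM reached the filter in 0 ROBO1neg libraries, COL1A2 in 3 ROBO1neg libraries and VWF in 3 ROBO1pos libraries. The part of these marker differences in the results was not tested.

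Upstream sequence is given for the 4 called markers to which RefSeq assigns a single transcription start, since no choice among starts was needed. Each window holds the 250 bases before the start on the gene's own strand, 5′ to 3′ (GRCh38.p14), and capitals mark CG dinucleotides. SMOC2, MEX3A and SLC12A2 were higher in ROBO1pos, and CDCA7 was higher in ROBO1neg.
SMOC2 (chr6:168440934-168441183, plus strand): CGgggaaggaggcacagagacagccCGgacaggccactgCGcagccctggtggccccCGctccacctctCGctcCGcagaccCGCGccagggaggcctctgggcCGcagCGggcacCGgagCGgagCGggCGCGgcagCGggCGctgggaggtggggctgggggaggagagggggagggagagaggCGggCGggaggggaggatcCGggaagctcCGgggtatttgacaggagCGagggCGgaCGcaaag
MEX3A (chr1:156082466-156082715, minus strand): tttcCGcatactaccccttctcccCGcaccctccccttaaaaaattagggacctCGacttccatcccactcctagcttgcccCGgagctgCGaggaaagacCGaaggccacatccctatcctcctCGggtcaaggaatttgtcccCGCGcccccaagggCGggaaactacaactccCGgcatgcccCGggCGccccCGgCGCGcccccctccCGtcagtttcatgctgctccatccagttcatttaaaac
SLC12A2 (chr5:128083516-128083765, plus strand): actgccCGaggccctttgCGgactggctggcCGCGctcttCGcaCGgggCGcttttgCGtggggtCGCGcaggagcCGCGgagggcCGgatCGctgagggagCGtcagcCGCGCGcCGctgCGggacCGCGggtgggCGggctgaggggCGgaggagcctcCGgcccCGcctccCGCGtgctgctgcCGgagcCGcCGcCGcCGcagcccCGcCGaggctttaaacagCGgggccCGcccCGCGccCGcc
CDCA7 (chr2:173354622-173354871, plus strand): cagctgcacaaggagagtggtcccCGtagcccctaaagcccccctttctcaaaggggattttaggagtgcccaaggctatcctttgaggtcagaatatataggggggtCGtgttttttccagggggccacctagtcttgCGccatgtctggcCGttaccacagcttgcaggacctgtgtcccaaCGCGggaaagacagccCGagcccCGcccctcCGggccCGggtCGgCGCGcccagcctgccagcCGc

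The SLC12A2 window is 79.6% G and C with 40 CG dinucleotides, that of SMOC2 75.2% with 24, that of CDCA7 62.8% with 14 and that of MEX3A 60.8% with 17. The median over 35116 such windows was 58.0% and 11. RefSeq windows were matched for 9 of the 10 markers, 18 windows in all, and ASCL2 had none in the table. The core letters bound by TCF and LEF factors, CTTTGAT on either strand, occurred in 1 of the 18 windows, at 179 bases before the most downstream of the 4 listed starts of PROM1. The same letters occurred in 2.26% of all windows. The palindromic E-box CAGCTG, a form bound by bHLH factors of the ASCL type, occurred in 1 of the 18, at the first base of the CDCA7 window printed above, 250 bases before its start, and in 14.0% of all windows. These matches describe letters and not binding.

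Of the 10 markers, 7 passed the expression filter and could be tested, and 3 (OLFM4, PROM1 and PTPRO) could not. ASCL2, SMOC2, MEX3A, SLC12A2 and RGMB were higher in ROBO1pos, and CDCA7 and LRIG1 were higher in ROBO1neg, each with a Benjamini-Hochberg adjusted p under 0.05 by edgeR's quasi-likelihood test. The same test called 82.0% of all 14932 genes tested, 41.6% as higher in ROBO1pos and 40.4% as higher in ROBO1neg, so being called is common in this comparison. SMOC2 passed the filter through its ROBO1pos libraries alone. The libraries of the populations did not overlap for any of the 7, which was also true of 72.1% of all genes tested. A fitted difference of at least 2-fold was seen for 5 of the 7 (30.3% of all genes): 4 were at least 2-fold higher in ROBO1pos (13.5% of all genes) and LRIG1 was at least 2-fold higher in ROBO1neg (16.8%). LRIG1 was only just past 2-fold, and its place depended on scaling. Its log2 fold change was -1.02 here, -0.99 without scaling and -0.95 with upper-quartile scaling. In bulk RNA, fewer cells that express a gene and less RNA per cell cannot be told apart.

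**Figure D1:**
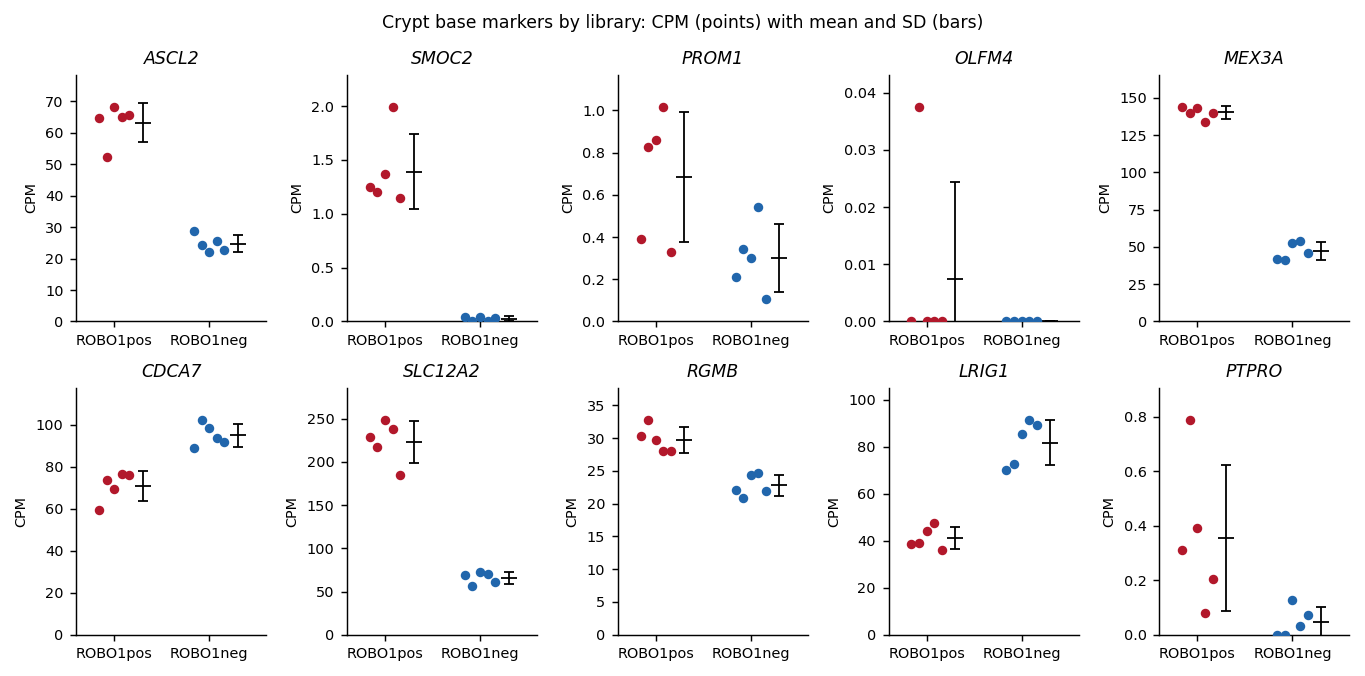
CPM of each of the 10 markers (vertical axes from 0, a scale per gene) in the ROBO1pos and ROBO1neg libraries; points are libraries in replicate order and bars the mean and SD of 5. The populations separate fully for 7 markers, and overlap for PROM1, PTPRO and OLFM4, which are all near or below 1 CPM.

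ASCL2 is a basic helix-loop-helix transcription factor and Wnt target that in mouse maintains the identity of Lgr5 stem cells. The locus is on chromosome 11 from 2268498 to 2270588 on the minus strand (RefSeq, GRCh38.p14, as for all positions given here). ASCL2 was at 64.6, 52.3, 68.3, 65.0 and 65.5 CPM in ROBO1pos replicates 1 to 5, and at 28.9, 24.2, 22.1, 25.7 and 22.6 CPM in ROBO1neg replicates 1 to 5. The lowest ROBO1pos library, replicate 2, was still well above every ROBO1neg library. The log2 fold change was 1.33 (SE 0.084, edgeR adjusted p = 2.79e-09), larger in size than that of 77.6% of genes tested, and ROBO1neg kept 39.1% of the ROBO1pos level.

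The bHLH factor works as a dimer with E proteins, and ID proteins hold such dimers off DNA. Of the 3 E protein genes, TCF4 (the E protein gene, not the Wnt effector TCF7L2) was at 9.32 ± 2.13 CPM in ROBO1pos and 0.485 ± 0.147 CPM in ROBO1neg, TCF12 was modestly higher in ROBO1pos (log2 fold change 0.25, SE 0.042), and TCF3 was higher in ROBO1neg (log2 fold change -0.48, SE 0.038). The ID genes differed in direction. ID1 was at 35.7 ± 2.64 CPM in ROBO1pos and 4.18 ± 0.913 CPM in ROBO1neg, whereas ID2 was at 51.9 ± 6.88 CPM in ROBO1pos and 268 ± 25.1 CPM in ROBO1neg. ID3 was low in both populations with more in ROBO1pos (log2 fold change 0.73, SE 0.19). ROBO1pos also had more of the ASCL2 paralogue ASCL5 (log2 fold change 3.16, SE 0.30). ASCL5 reached the expression filter in 3 ROBO1neg libraries and TCF4 in 4, so both entered the test through ROBO1pos. ASCL3 had 0 counts in all libraries, and ASCL4 had too few to be tested.

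SMOC2 encodes a secreted, calcium-binding matricellular protein of the SPARC family and is used as a stem cell marker in mouse and human crypts. The gene is on chromosome 6 from 168441184 to 168667992 on the plus strand. In replicate order, as for all markers, SMOC2 had 1.25, 1.20, 1.37, 1.99 and 1.15 CPM in ROBO1pos, against 0.042, 0, 0.043, 0 and 0.036 CPM in ROBO1neg. These are 176 counts over ROBO1pos and 3 counts over ROBO1neg, a depth-scaled ratio of summed counts of 59.1 with a 95% exact binomial interval of 19.9 to 289 that covers counting error only. SMOC2 had the steepest log2 fold change of the 7 tested markers, 5.60 (SE 0.42, edgeR adjusted p = 1.58e-08), and it was also the least abundant of them. It reached the expression filter in 0 ROBO1neg libraries and so had to differ, which leaves its adjusted p as no independent support. Its ROBO1neg level was 1.73% of its ROBO1pos level, beside 1.66% for ROBO1 itself. How far residual ROBO1-expressing cells in the ROBO1neg gate contributed those 3 counts was not tested.

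SMOC1, the closest relative of SMOC2, was low and higher in ROBO1pos, at 2.38 ± 0.584 CPM against 0.0933 ± 0.0961 CPM in ROBO1neg (log2 fold change 4.47, SE 0.42). SPARC, the founding member of the family and a collagen-binding matrix protein, had the opposite sign, at 0.0628 ± 0.0807 CPM in ROBO1pos and 5.74 ± 1.42 CPM in ROBO1neg. Like SMOC2, both passed the expression filter only through the population where they were high: SMOC1 reached it in 0 ROBO1neg libraries and SPARC in 0 ROBO1pos libraries. A gene that enters the test in this way had to differ. SPARCL1 had too few counts to be tested.

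OLFM4 encodes a secreted olfactomedin glycoprotein that marks stem cells of the human small intestine and colon and responds to Notch signalling. Its gene lies on chromosome 13 from 53028813 to 53052057 on the plus strand. OLFM4 was at 0.0376 CPM in ROBO1pos replicate 2, from 1 read, and at 0 in the other 4 ROBO1pos and in all 5 ROBO1neg libraries. A count of 0 allows up to 3 counts, or 0.0235 CPM over the ROBO1neg libraries together, so OLFM4 was not detectable in ROBO1neg and hardly in ROBO1pos. No fold is given. Its relatives OLFM1 and OLFM2, which are mainly known from neural tissue, were expressed and had opposite signs. OLFM1 was at 8.65 ± 0.680 CPM in ROBO1pos and 40.7 ± 0.686 CPM in ROBO1neg, and OLFM2 at 5.02 ± 0.977 CPM in ROBO1pos and 1.28 ± 0.288 CPM in ROBO1neg.

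PROM1 encodes CD133, a membrane glycoprotein of cell protrusions that has been used to enrich for tumour-initiating cells of the colon. The locus is on chromosome 4 from 15968228 to 16084023 on the minus strand. PROM1 was at 0.390, 0.826, 0.861, 1.02 and 0.327 CPM in ROBO1pos and at 0.210, 0.344, 0.300, 0.542 and 0.108 CPM in ROBO1neg. ROBO1pos replicates 1 and 5 fell among the ROBO1neg libraries. The summed counts of 87 in ROBO1pos and 39 in ROBO1neg gave a ratio of 2.25 (95% exact binomial interval 1.52 to 3.37, counting error only), but the exact two-sided permutation test over the libraries did not pass (p = 0.0556, n = 5 each). In an edgeR fit without the expression filter PROM1 passed (log2 fold change 1.13, SE 0.40, adjusted p = 0.0193), and the permutation p was under 0.05 without ROBO1pos replicate 1 (0.0476), ROBO1pos replicate 5 (0.0317) or ROBO1neg replicate 4 (0.0317). PROM2, its only paralogue, had too few counts for the test, with a mean of 0.444 ± 0.113 CPM in ROBO1pos and 0.103 ± 0.0410 CPM in ROBO1neg.

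MEX3A encodes an RNA-binding protein with KH and RING domains, and in mouse crypts it marks a slowly dividing subset of Lgr5 cells. The gene is on chromosome 1 from 156072013 to 156082465 on the minus strand. MEX3A was at 144, 140, 143, 134 and 140 CPM in ROBO1pos, against 41.8, 40.9, 52.4, 54.1 and 45.6 CPM in ROBO1neg. ROBO1pos libraries were tightly grouped, with an SD of 2.98% of their mean, and ROBO1neg libraries were looser, at 12.9%. The ratio of means was 2.98 and the log2 fold change 1.55 (SE 0.074, edgeR adjusted p = 1.23e-10).

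The MEX3 genes had both signs. MEX3B was higher in ROBO1pos, at 11.3 ± 1.19 CPM in ROBO1pos and 4.73 ± 0.449 CPM in ROBO1neg, and MEX3C was slightly higher in ROBO1pos (log2 fold change 0.34, SE 0.046). MEX3D was higher in ROBO1neg, at 6.89 ± 0.645 CPM in ROBO1pos against 22.1 ± 1.54 CPM in ROBO1neg. All 4 members of the family were called, where 82.0% of all genes tested were.

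CDCA7 encodes a zinc finger protein that recruits the chromatin remodeller HELLS, and is known as a target of MYC and as an intestinal stem cell signature gene. Its gene lies on chromosome 2 from 173354872 to 173368997 on the plus strand. CDCA7 was at 59.2, 73.5, 69.4, 76.5 and 75.9 CPM in ROBO1pos and at 88.8, 102, 98.2, 93.5 and 91.8 CPM in ROBO1neg. The highest ROBO1pos library lay below the lowest ROBO1neg library, though the gap was small. The log2 fold change was -0.44 (SE 0.066, edgeR adjusted p = 2.59e-05), which did not pass a test against a difference of 1.5-fold (adjusted p = 1.00), and 40.4% of genes tested had a smaller one in size.

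CDCA7L, its paralogue, had the other sign, at 261 ± 21.8 CPM in ROBO1pos and 128 ± 3.33 CPM in ROBO1neg (log2 fold change 1.01, SE 0.056). HELLS, the known partner of CDCA7, was not called, at 51.4 ± 1.99 CPM in ROBO1pos and 50.1 ± 2.14 CPM in ROBO1neg (edgeR adjusted p = 0.697). UHRF1, which reads hemimethylated DNA, was not called either (-0.13, SE 0.061). DNMT1, the maintenance DNA methyltransferase, was higher in ROBO1pos, at 317 ± 11.5 CPM against 202 ± 3.99 CPM in ROBO1neg.

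SLC12A2 encodes NKCC1, the sodium, potassium and chloride cotransporter that loads chloride into secreting crypt cells. The locus is on chromosome 5 from 128083766 to 128189677 on the plus strand. SLC12A2 was at 229, 217, 249, 238 and 185 CPM in ROBO1pos, against 69.3, 56.6, 72.5, 70.9 and 60.8 CPM in ROBO1neg. Replicate 5 was the lowest ROBO1pos library and still exceeded every ROBO1neg library. The ratio of means was 3.39 and the log2 fold change 1.74 (SE 0.085, edgeR adjusted p = 1.73e-10), the second in size among the 7 tested markers.

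NKCC1 is switched on by WNK kinases acting through the kinases encoded by STK39 and OXSR1. WNK1 was higher in ROBO1pos (log2 fold change 0.60, SE 0.049), and so was the scarce WNK4, at 4.01 ± 0.972 CPM against 1.45 ± 0.456 CPM in ROBO1neg. STK39 and OXSR1 were slightly higher in ROBO1neg (-0.28, SE 0.039, and -0.38, SE 0.046). Of the other cation-chloride cotransporter genes, the potassium-chloride cotransporter SLC12A7 was slightly higher in ROBO1pos (0.31, SE 0.10) and SLC12A4 was higher in ROBO1neg (-0.73, SE 0.071), while SLC12A1, SLC12A3 and SLC12A5 had too few counts to be tested.

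RGMB encodes a GPI-anchored co-receptor for bone morphogenetic proteins (BMPs) that also binds neogenin. The gene is on chromosome 5 from 98768632 to 98796494 on the plus strand. RGMB was at 30.2, 32.7, 29.8, 28.0 and 28.0 CPM in ROBO1pos and at 22.1, 20.8, 24.4, 24.7 and 21.9 CPM in ROBO1neg. The lowest ROBO1pos and highest ROBO1neg libraries were close but did not overlap. The log2 fold change of 0.36 (SE 0.065, edgeR adjusted p = 1.24e-04) was the smallest of the 7 and did not pass a test against 1.5-fold (adjusted p = 1.00). In GENCODE release 29, antisense gene models share exon sequence with RGMB, AC008522.1 over 2682 bases, or 40.2% of the exon length of RGMB, and RGMB-AS1 over 363 bases, or 5.44%. AC008522.1 was not among the gene symbols listed in the libraries, and RGMB-AS1 had 55 counts over ROBO1pos and 35 over ROBO1neg. Without a stated strand setting, reads of overlapping genes cannot be told apart. With the median of its 40 neighbouring genes removed, RGMB had a log2 fold change of 0.19.

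RGMA, the paralogue, differed far more, at 25.6 ± 2.77 CPM in ROBO1pos and 2.78 ± 0.404 CPM in ROBO1neg (log2 fold change 3.19, SE 0.11). NEO1, which encodes neogenin, was higher in ROBO1pos (0.42, SE 0.045). BMP receptors divided: the type I receptor BMPR1B was at 3.06 ± 0.391 CPM in ROBO1pos and 0.0203 ± 0.0454 CPM in ROBO1neg and reached the filter in 0 ROBO1neg libraries, and BMPR1A was not called (0.050, SE 0.064), whereas the type I receptor ACVR1 and the type II receptor BMPR2 were higher in ROBO1neg (-1.83, SE 0.072, and -1.71, SE 0.071). The ligand BMP2 was at 27.8 ± 5.70 CPM in ROBO1pos and 1.66 ± 0.820 CPM in ROBO1neg. BMP4, the more abundant in counts, was at 347 ± 32.2 CPM in ROBO1pos and 737 ± 133 CPM in ROBO1neg.

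LRIG1 encodes a membrane protein with leucine-rich repeats that restrains ERBB receptors, and in mouse it marks a broad set of intestinal stem cells. Its gene lies on chromosome 3 from 66378797 to 66501121 on the minus strand. LRIG1 was at 38.7, 39.2, 44.2, 47.5 and 35.9 CPM in ROBO1pos and at 70.4, 72.6, 85.5, 91.4 and 89.2 CPM in ROBO1neg. Each ROBO1pos library was below each ROBO1neg library, and the ratio of mean CPM was 1.99 in favour of ROBO1neg, at the edge of 2-fold. The log2 fold change was -1.02 (SE 0.088, edgeR adjusted p = 8.53e-08). Across its 40 nearest tested genes on chromosome 3 the log2 fold change was -0.79 in the median, and with that median removed the log2 fold change of LRIG1 was -0.23 (adjusted p = 0.0288). Exons of SLC25A26, on the opposite strand, share 907 bases with those of LRIG1, or 12.9% of its exon length. SLC25A26 had 3102 counts over ROBO1pos and 3733 over ROBO1neg, and its part in the LRIG1 difference was not tested.

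The LRIG paralogues differed from LRIG1. LRIG3 was at 5.00 ± 0.419 CPM in ROBO1pos and 0.285 ± 0.142 CPM in ROBO1neg (log2 fold change 4.10, SE 0.22) and reached the filter in 1 ROBO1neg library, and LRIG2 was not called, at 16.3 ± 0.659 CPM in ROBO1pos and 16.1 ± 0.874 CPM in ROBO1neg (edgeR adjusted p = 0.940). Among receptors that LRIG1 is known to restrain, EGFR was at 1.38 ± 0.436 CPM in ROBO1pos and 90.3 ± 16.3 CPM in ROBO1neg, and ERBB2 was higher in ROBO1neg (-0.76, SE 0.066). ERBB3 and MET were higher in ROBO1pos (0.59, SE 0.097, and 2.05, SE 0.10).

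PTPRO encodes a receptor tyrosine phosphatase that was found in the signature of mouse Lgr5 cells. The locus is on chromosome 12 from 15322508 to 15598331 on the plus strand. PTPRO was at 0.312, 0.789, 0.391, 0.0814 and 0.205 CPM in ROBO1pos and at 0, 0, 0.128, 0.0339 and 0.0717 CPM in ROBO1neg. ROBO1pos replicate 4, with 2 reads, fell within the ROBO1neg range. The summed counts of 46 in ROBO1pos and 6 in ROBO1neg gave a ratio of 7.72 (95% exact binomial interval 3.29 to 22.1, counting error only), and the exact two-sided permutation test gave p = 0.0159, where 0.00794 is the smallest that 5 against 5 libraries allow. It was 1 of 3 such exact permutation tests, with OLFM4 at p = 1.00, and is not adjusted. In the edgeR fit without the filter the adjusted p was 0.00206. Of the phosphatases nearest to PTPRO, PTPRB was higher in ROBO1pos (log2 fold change 0.82, SE 0.24), and PTPRH and PTPRJ were higher in ROBO1neg (-2.83, SE 0.16, and -1.67, SE 0.060). PTPRB reached the filter in 4 ROBO1neg libraries.

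**Figure D2:**
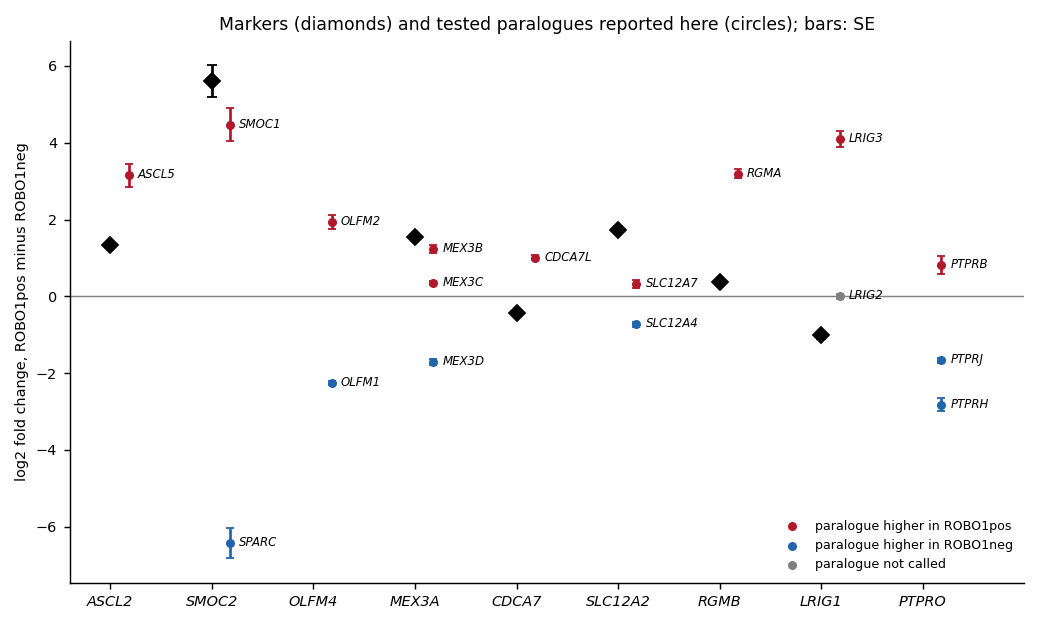
Log2 fold change (ROBO1pos minus ROBO1neg, bars SE) of tested markers (diamonds) and of the tested paralogues reported here (circles, coloured by call); OLFM4 and PTPRO have no diamond because they were not tested. LRIG1 at -1.02 stands beside LRIG3 at 4.10, CDCA7 at -0.44 beside CDCA7L at 1.01, and MEX3A at 1.55 beside MEX3D at -1.70.

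Over all markers, 28 paralogues were looked up and 18 were tested. In ROBO1pos 11 of them were higher, in ROBO1neg 6, and 1 was not called, with a median log2 fold change of 0.38 against 0.019 over all genes tested. Of the 24 partner genes, all tested, ROBO1pos had the higher level for 12 and ROBO1neg for 9, and 3 were not called, with a median of 0.15. Over all genes tested 41.6% were higher in ROBO1pos and 40.4% in ROBO1neg, and 82.0% were called in either direction. The paralogues ASCL5, SMOC1, LRIG3 and PTPRB and the partners TCF4 and BMPR1B reached the filter in all 5 libraries of ROBO1pos only. SPARC did so in ROBO1neg only. The counts and medians include these genes, whose entry into the test favoured the direction called.

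Levels of different genes were set side by side per kilobase of exon in GENCODE release 29, an annotation that may differ from the one used for counting. In ROBO1pos the order was ASCL2 at 34.1 ± 3.35 CPM per kilobase, MEX3A at 22.9 ± 0.681, SLC12A2 at 21.0 ± 2.27, CDCA7 at 18.02 ± 1.80, LRIG1 at 5.85 ± 0.663, RGMB at 4.46 ± 0.295 and SMOC2 at 0.345 ± 0.0860. MEX3A and SLC12A2 differed by less than their SDs added together, as did SLC12A2 and CDCA7. In ROBO1neg, CDCA7 came first at 24.1 ± 1.35 CPM per kilobase, followed by ASCL2 at 13.3 ± 1.48, LRIG1 at 11.6 ± 1.38, MEX3A at 7.67 ± 0.986, SLC12A2 at 6.19 ± 0.650, RGMB at 3.41 ± 0.251 and SMOC2 at 0.00599 ± 0.00551. There ASCL2 and LRIG1 differed by less than their added SDs, as did MEX3A and SLC12A2. CDCA7 thus stood below ASCL2 and MEX3A in ROBO1pos, with SLC12A2 not separated from it, and above the other 6 tested markers in ROBO1neg.

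**Figure D3:**
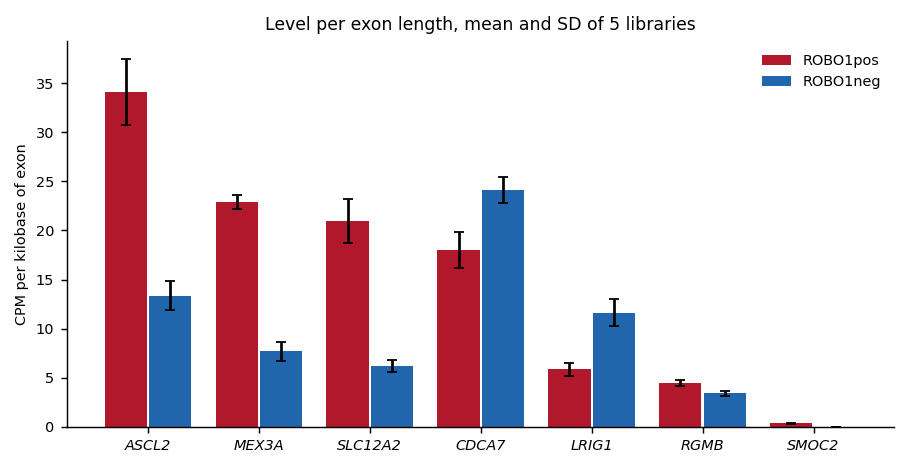
Mean CPM per kilobase of annotated exon for the 7 tested markers in ROBO1pos (left bar of each pair) and ROBO1neg (right bar), with the SD of 5 libraries. ASCL2 is the tallest ROBO1pos bar at 34.1 and CDCA7 the tallest ROBO1neg bar at 24.1.

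Each tested marker was also set beside its chromosomal neighbours. The median log2 fold change of up to 20 tested genes on each side was -0.098 around ASCL2, 0.17 around SMOC2 (26 genes), 0.16 around MEX3A, -0.020 around CDCA7, 0.14 around SLC12A2 and 0.18 around RGMB. With these medians removed, SMOC2, SLC12A2, MEX3A and ASCL2 had log2 fold changes of 5.45, 1.598, 1.39 and 1.43, CDCA7 had -0.42 and RGMB had 0.19 (edgeR adjusted p = 0.0158). LRIG1 was the tested marker whose value moved most, and the number of markers with at least a 2-fold difference was then 4, without LRIG1, where 27.8% of all genes tested were past 2-fold under the same correction.

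**Figure D4:**
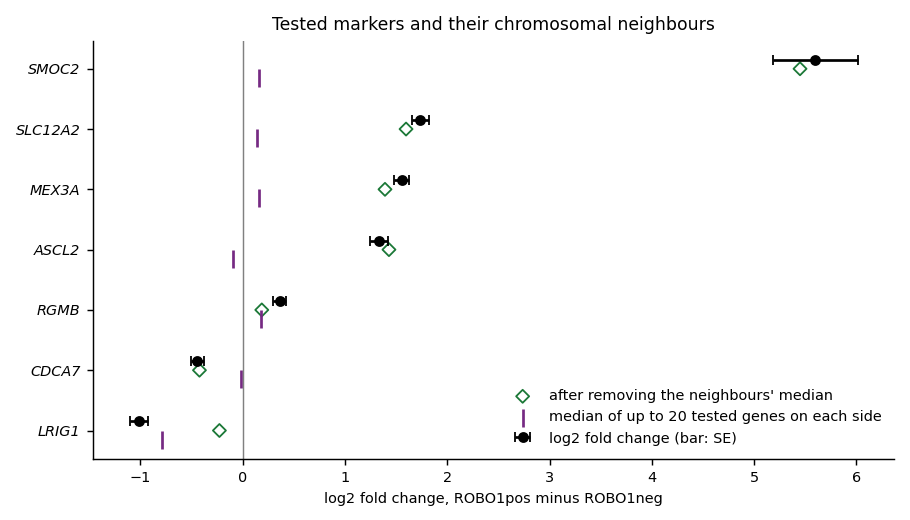
Log2 fold change (ROBO1pos minus ROBO1neg) of the 7 tested markers with SE (filled circles), the median of their neighbouring tested genes (vertical ticks) and the value after that median is removed (open diamonds). The diamond of LRIG1 lies at -0.23, against a filled circle at -1.02, while those of SMOC2, SLC12A2, MEX3A and ASCL2 stay above 1.

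Other genes of the crypt base programme were called in each direction about as often as genes in general. Of 30 such genes, 27 were tested: ROBO1pos had more of 12 and ROBO1neg of 11, and 4 (EPHB2, TNFRSF19, RNF43 and LRP4) were not called, with a median log2 fold change of 0.039. Over all genes tested, 41.6% were higher in ROBO1pos and 40.4% in ROBO1neg. NOTCH1, a receptor needed for stem cell maintenance, was at 255 ± 19.0 CPM in ROBO1pos and 66.0 ± 2.87 CPM in ROBO1neg. DACH1, a transcriptional regulator, was at 202 ± 12.2 CPM in ROBO1pos and 7.76 ± 2.04 CPM in ROBO1neg. LGR5 and CDK6, a cell cycle kinase, were the other 2 with the smallest adjusted p in that direction (6.75, SE 0.23, and 2.27, SE 0.089). LGR5 reached the filter in only 2 ROBO1neg libraries and so entered the test through ROBO1pos. In the other direction were the potassium channel subunit KCNE3 (-5.99, SE 0.19, with 0 ROBO1pos libraries at the filter), the vitamin D receptor VDR (-2.34, SE 0.076), the Wnt feedback gene AXIN2 (-1.36, SE 0.048) and the transcription factor ETS2 (-1.93, SE 0.078). Among the 11, FSTL1 also reached the filter in 0 ROBO1pos libraries. NR2E3, SCN2B and AQP4 had too few counts to be tested.

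Tested genes of reserve or injury-induced stem cell states were mostly higher in ROBO1neg. Of 10, 8 were tested, 7 were higher in ROBO1neg, TERT was not called and 0 were higher in ROBO1pos, with a median log2 fold change of -2.34. LY6D and HOPX had too few counts to be tested, with 17 and 3 over ROBO1pos and 0 over ROBO1neg. In the fit without the filter, 1 gene of the list was called higher in ROBO1pos. Of all genes tested, ROBO1pos had the higher level for 41.6% and ROBO1neg for 40.4%. Among the 7, BMI1 reached the filter in 0 ROBO1pos libraries and so had to differ, and the median includes it. EMP1, a tetraspan membrane protein, was at 2.71 ± 0.727 CPM in ROBO1pos and 147 ± 8.86 CPM in ROBO1neg. The keratin gene KRT80 and the annexin gene ANXA3 were also higher in ROBO1neg (-2.76, SE 0.13, and -1.31, SE 0.087). Earlier results of these data had shown much of this pattern, so it is no independent support.

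**Figure D5:**
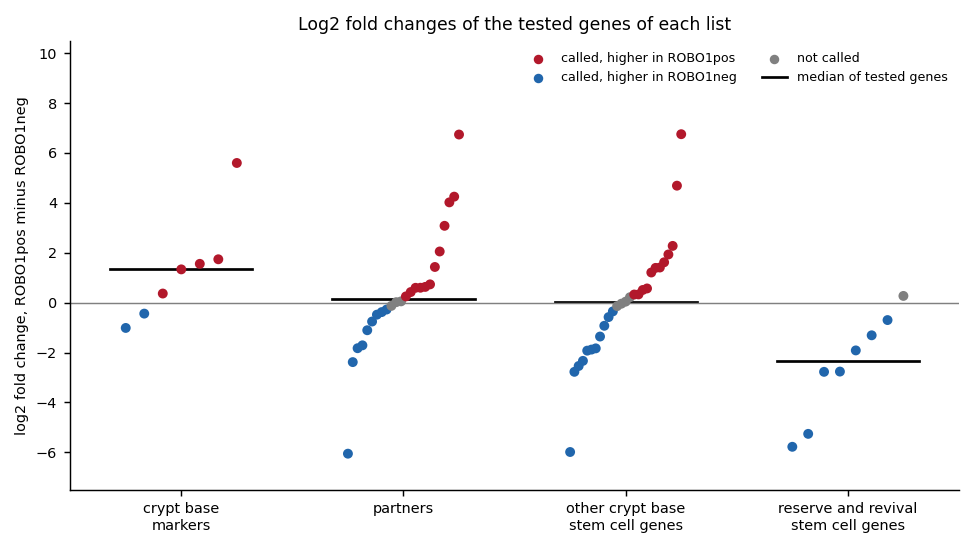
Log2 fold change (ROBO1pos minus ROBO1neg) of each tested gene in 4 lists; colours give the edgeR call and black lines the median. The other crypt base genes spread on both sides of 0 around a median of 0.039, and the reserve and revival genes lie below 0 except TERT.

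For each tested marker the gene of like abundance with the smallest distance between gene-centred log2 CPM profiles over the 10 libraries was looked up as a description. It was CRTC1 for ASCL2 (distance 0.41), FMNL2 for MEX3A (0.25), NAV2 for SLC12A2 (0.29), PCGF3 for RGMB (0.18), POLD3 for CDCA7 (0.20), KIAA0556 for LRIG1 (0.28) and LOC400655 for SMOC2 (0.82). LOC400655 was at 1.03 ± 0.242 CPM in ROBO1pos and had 0 counts in ROBO1neg, so it passed the filter through ROBO1pos alone. FMNL2, a formin, was at 87.9 ± 1.66 CPM in ROBO1pos and 31.0 ± 2.32 CPM in ROBO1neg. These genes were chosen by likeness over the same 10 libraries, so a fold near that of the marker follows from the choice.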

How the data were processed

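Polyadenylated RNA of 10 sorted SW480 samples was sequenced from stranded libraries, per the labels' protocols. The authors deposited raw read counts per gene, 1 file per library, without normalization. Among the tools named are FastQC, bcl2fastq, SAMtools 1.9, STAR 2.6.0c and DESeq2 1.24.0, and the build is GRCh38, per the submitters' processing notes. The counter, strand option and annotation were not given in the sources used here. Overlapping and antisense genes may therefore share reads. The 5 entries that name no gene were left out. On average 58.7% of reads in ROBO1pos and 63.4% in ROBO1neg fell on genes, and the rest had no feature (15.8% in ROBO1pos, 14.6% in ROBO1neg), several positions (24.6%, 21.2%) or several genes (0.860%, 0.833%).

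CPM were computed from gene totals. Genes were kept by filterByExpr (about 0.399 CPM in 5 libraries), scaled by TMM and tested with edgeR 4.0.16 in R 4.3.3 by the quasi-likelihood test with group as the only term, called at an adjusted p under 0.05. Log2 CPM used a prior count of 2. Standard errors came from the coefficient and its F statistic. For the 3 markers below the filter, a two-sided exact permutation test used all 252 assignments of libraries. Named genes were the markers, ROBO1, tested paralogues, the 4 smallest adjusted p per direction and list, and 1 most similar gene per tested marker (mean log2 CPM within 1). Partner genes outside that rule (TCF3, TCF12, ID3, HELLS, UHRF1, DNMT1, WNK1, WNK4, STK39, OXSR1, NEO1, BMPR1A, BMPR1B, BMP4, ERBB2 and ERBB3) were named after their values were seen, to complete each account. Some genes that the rule takes are named in no result here, though the list counts include them. The markers and lists were chosen with earlier results of these data known.

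Positions and upstream windows came from RefSeq (GRCh38.p14). Of the tested genes, 13663 were placed by symbol and 944 by an older name. Alternatives were RLE, upper-quartile and no scaling, other filters, DESeq2 1.42.0, limma-voom (limma 3.58.1), removal of the neighbours' median, a block for replicate number, a test against 1.5-fold, and each library left out. On simulated counts with known changes among 14817 genes, the test recovered 46 of 50 changes of 1.5-fold and 46 of 46 of 2-fold, with 9 false calls. The simulation left 14622 genes unchanged and set the same spread for every gene. In the data 82.0% of genes were called and spreads differ, so these rates need not carry over. Counts of within-group pairs differed by 3.55 to 22.0 times the sampling variance, so each was counted as its own library. Intervals cover counting error only, since reads are not independent molecules.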

Additional observations from a re-analysis of the deposited data

Results flagged for a closer look

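Single libraries far from the other 4 of their population were found in 7 of 106 sets of 5 libraries examined, for 54 named genes. Chance gives about 1 in 20 for normally distributed values, a rate that need not hold for low counts. ASCL2 was at 52.3 CPM in ROBO1pos replicate 2, against 64.6 to 68.3 CPM in the other ROBO1pos libraries. SMOC2 was at 1.99 CPM in ROBO1pos replicate 4, against 1.15 to 1.37 CPM in the others. OLFM4 was at 0.0376 CPM in ROBO1pos replicate 2, from 1 read, and at 0 in the others, a pattern that the rule always flags. FMNL2 (90.8 CPM, others 87.0 to 87.4) and OLFM2 (6.70 CPM, others 4.27 to 4.93) stood out upward in ROBO1pos replicate 1. In ROBO1neg, MEX3C was low in replicate 3 at 64.0 CPM (others 70.2 to 72.6) and ETS2 low in replicate 2 at 109 CPM (others 124 to 128).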

How the results depend on the processing

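The 7 tested markers kept their direction under every alternative run, and all stayed called except under the test against 1.5-fold, where CDCA7 (-0.44) and RGMB (0.36) were not called. Their log2 fold changes ranged over the alternatives from 1.32 to 1.43 for ASCL2, 5.16 to 5.86 for SMOC2, 1.39 to 1.62 for MEX3A, 1.598 to 1.80 for SLC12A2, 0.19 to 0.43 for RGMB, -0.45 to -0.38 for CDCA7 and -1.03 to -0.23 for LRIG1, whose value nearest 0 came from removal of the neighbours' median. SMOC2 could not be tested with the filter of 5 CPM in 5 libraries. Scaling moved the median of all genes by at most 0.063.

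Against 1.5-fold, 2938 genes were called higher in ROBO1pos and 3298 in ROBO1neg, against 6214 in ROBO1pos and 6036 in ROBO1neg in the test of no difference. Counts of list genes fell to 7 paralogues and 6 partners higher in ROBO1pos and 1 marker higher in ROBO1neg, because the test asks for more. The filter of 5 CPM left 12 paralogues tested, with 6 higher in ROBO1pos and 5 in ROBO1neg. Of all 11663 genes tested under that filter, 4967 were higher in ROBO1pos and 4863 in ROBO1neg. Without a filter, 1 reserve or revival gene was called higher in ROBO1pos, as were 6946 of all 20916 genes tested.

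Leaving out each library in turn gave 1.29 to 1.39 for ASCL2, 5.27 to 5.84 for SMOC2, 1.502 to 1.61 for MEX3A, 1.68 to 1.79 for SLC12A2, 0.33 to 0.39 for RGMB, -0.48 to -0.38 for CDCA7 and -1.07 to -0.97 for LRIG1. The mean CPM difference of PROM1 (0.384 with all libraries) ranged from 0.300 to 0.473, and its permutation p from 0.0317 to 0.111. That of PTPRO ranged from 0.200 to 0.377 with p from 0.0159 to 0.0317. Genes called ranged from 6087 to 6245 higher in ROBO1pos and from 5976 to 6148 higher in ROBO1neg, and markers called from 5 to 6 higher in ROBO1pos, with 2 higher in ROBO1neg each time. The count of 6 came only from runs in which 8 markers, not 7, passed the filter.

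Libraries with the same replicate number correlated between 0.062 and 0.17 in their deviations from the group means, and 8 of 10 libraries correlated best with their own number, a hint from the data only. With the replicate number as a block, 6226 genes were called higher in ROBO1pos and 6086 higher in ROBO1neg, and it changed the call of 0 tested markers. Depth limits OLFM4, PROM1 and PTPRO, for which few counts were read.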
